A study of Rattus norvegicus with 12 samples.

Results

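The genes described here encode the proteasome, the protease that degrades ubiquitin-tagged proteins, in cultured rat pituitary cells enriched for gonadotropes, the cells that make luteinizing hormone. A gene was included when a probe set with a single symbol carried that symbol as Psm followed by a letter from a to g and a digit, and the brightest probe set over the 12 arrays stood for the gene. Of the 10680 genes tested, 46 met the rule, with 60 probe sets between them, and 46 of 46 passed the filter on low signal. They comprised 13 genes of the core particle (7 of the alpha ring and 6 of the beta ring), 17 of the regulatory particle (6 ATPases and 11 others), 3 inducible beta subunits, 7 assembly chaperones, 3 activators and 1 inhibitor. The 2 others, Psmc3ip and Psme3ip1, matched by letters alone: they encode a meiotic recombination cofactor and a protein that binds an activator, and neither is a subunit. Psmb6 and Psme3 were on the array only with probe sets that carry several symbols, so no value is given for them.

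The core particle is a barrel of stacked rings. The outer alpha rings form a gate, and inside the beta rings the catalytic subunits cut proteins into short peptides. The regulatory particle caps the barrel: its ATPases unfold substrates and thread them in, while its other subunits recognise ubiquitin chains and remove them. In cells exposed to interferon, the inducible subunits take the place of their constitutive counterparts. In gonadotropes, sustained GnRH is known to lower inositol trisphosphate receptor protein through this protease.

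The cells were from adult female Sprague-Dawley rats whose ovaries had been removed 2 weeks earlier, and 13 to 15 anterior pituitaries were pooled for an experiment. Sedimentation separated out the large cells (about 6% of the yield), which were cultured with 0.2 nM estradiol and 10% stripped serum. On day 3 they received 10 nM gonadotropin-releasing hormone (GnRH) or vehicle medium for 40 min. The 3 preparations, called enrichment sets I, II and III, each gave 2 vehicle and 2 GnRH arrays, so there were 6 arrays per agent.

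Luteinizing hormone stained 40 to 60% of these cells, per the labels, so the cultures were mixed, and in such samples fewer cells of a type and less RNA per cell cannot be told apart. Of 6 gonadotrope markers, Lhb, Cga, Fshb and Foxl2 lay above the array's background controls on all 12 arrays, Nr5a1 lay below them on 1 array and Gnrhr on 5. The hybridisation spike-in signal was low on the 4 arrays of set I and on vehicle 5 of set III (2264 to 11705) and high on the other 7 (53482 to 320024). Vehicle 3 resembled the other arrays least (median Spearman correlation 0.376). It held the lowest signal of 13 of the 46 members, and vehicle 6 the highest signal of 13. Signals are scaled intensities in arbitrary units, differences are on the log2 scale after 16 was added to the signal, and a gene was called at a limma adjusted p under 0.05.

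No proteasome transcript passed the test after 40 min of GnRH. Of the 46 members, 0 were called higher or lower, and 0.00936% of all genes tested were called. The single gene called was Fosb, an immediate early transcription factor (log2 difference 2.29 ± 0.32, SE, n = 6 per group, limma adjusted p = 0.0411). At an unadjusted p under 0.05 the count was 1 of 46 members (2.17%), against 3.29% of all genes. The median difference of the members was 0.04, equal to the median of 0.04 over all genes tested, and 28 of 46 members (60.9%) had a positive difference against 54.6% of all genes.

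Direction within the preparations gave the same picture. The members with a positive difference in each of the 3 sets numbered 6 (13%, against 12.3% of all genes): Psma3, Psma6, Psmb7, Psmc6, Psmd13 and Psmg1. Those with a negative difference in each set numbered 5 (10.9%, against 11.4%): Psmb2, Psmb9, Psmc3, Psmd3 and Psmd9. The criterion in the series' design text was applied here to signal plus 16. As applied, the mean log2 difference had to reach a fold of 1.5, and so did at least 50% of the 36 GnRH-vehicle pairs. By it 0 members were up (5.79% of all genes were) and 1, Psmd9, was down (6.24% of all genes were). The shares of members therefore lay close to or below the background of the table.

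**Figure D1:**
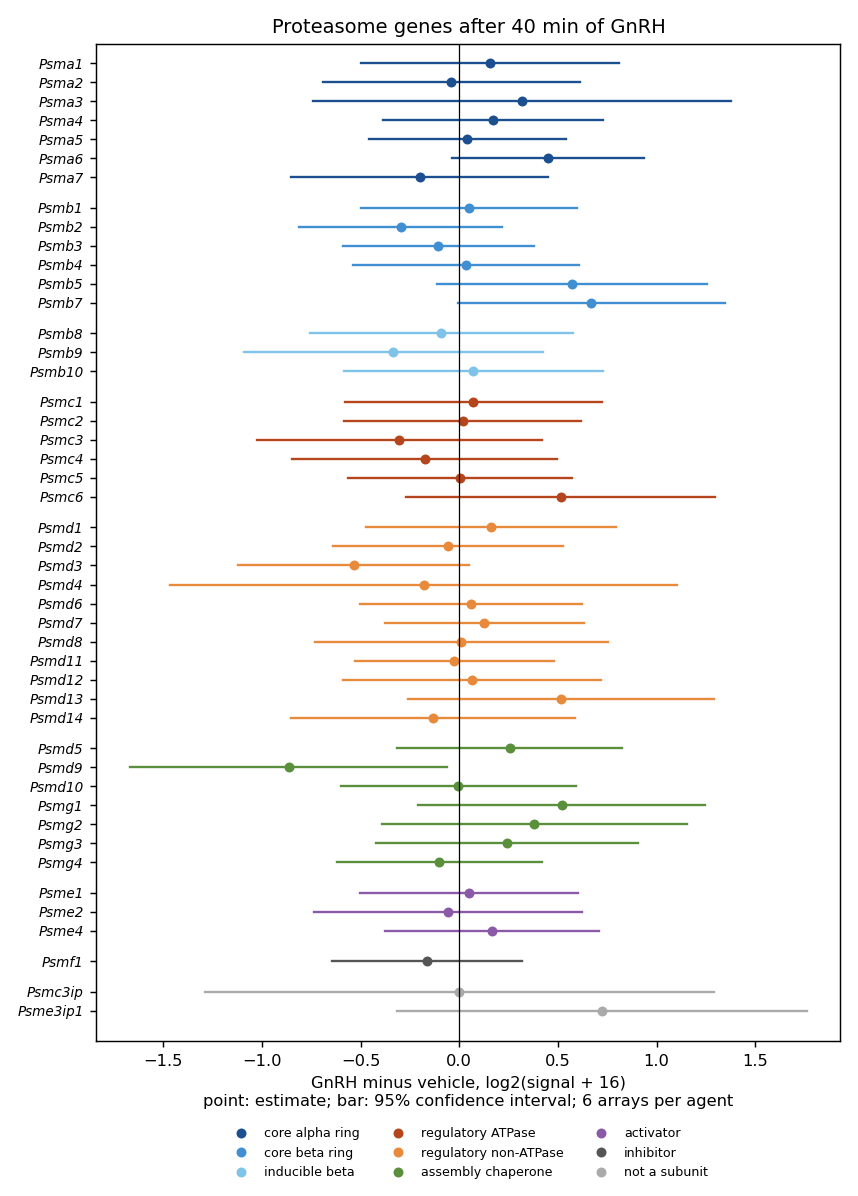
Difference between GnRH and vehicle on the log2(signal + 16) scale for each of the 46 genes, grouped by role; points are limma estimates and bars 95% confidence intervals over 6 arrays per agent. The bars of 45 genes span 0, and the bar of Psmd9 lies below it.

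In the core particle the median difference was 0.05, with 9 of 13 positive, and single genes ranged from -0.30 to 0.67. Psmb7, which carries the trypsin-like activity, gave signals of 418.5, 1926 and 2569 (lowest, median, highest) with vehicle and 1764, 2309 and 3185 with GnRH. The lowest vehicle value came from vehicle 1, and the groups overlapped. Its difference was 0.67 ± 0.32 (SE; unadjusted p = 0.0526, limma adjusted p = 0.981), and sets I, II and III gave 1.58, 0.26 and 0.17. Without vehicle 1 it was 0.38.

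Psmb5, the chymotrypsin-like subunit, ran at 1858, 7659 and 11287 with vehicle and at 6537.5, 9566 and 13743.5 with GnRH. The vehicle minimum was again a single array, vehicle 3. The difference of 0.57 ± 0.32 did not pass (limma adjusted p = 0.981), was 0.30 without vehicle 3, and had the opposite sign (-0.35) with a dimmer probe set. Psma6, an alpha ring subunit, had its vehicle signals at 2807, 4791 and 5312 and its GnRH signals at 5149.8, 5715 and 7229.6. GnRH was higher in 35 of 36 pairs of arrays, the groups overlapped slightly, and the difference was 0.45 ± 0.23 (limma adjusted p = 0.981). Psma7, another alpha ring subunit, differed by -0.20 ± 0.31, and Psma2 by -0.04 ± 0.31. Neither lay outside its error.

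The regulatory particle had a median difference of 0.01, with 10 of 17 positive and single genes between -0.53 and 0.52. Psmd3, a subunit of the lid that covers the ATPases, gave 1101.5, 1282 and 2297.5 with vehicle and 447.1, 961.5 and 1729 with GnRH. The groups overlapped, although all 3 sets had a negative difference. The estimate was -0.53 ± 0.28 (limma adjusted p = 0.981). Psmd13, also of the lid, differed by 0.52 ± 0.37, and among the ATPases Psmc6 differed by 0.51 ± 0.37 and Psmc3 by -0.30 ± 0.34. None of these was called (limma adjusted p = 0.981 for each), and single arrays moved them: Psmd3 was -0.35 and Psmc3 -0.10 without GnRH 6, Psmd13 was 0.22 without vehicle 1 and Psmc6 was 0.20 without vehicle 6. For Psmc6 the sign depended on the probe set: a second tested one gave -0.55.

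Psmd4, a receptor for ubiquitin chains, had the widest interval of the 44 subunits and factors. With vehicle its signals were 597.5, 1236 and 1654. With GnRH they were 49.0, 1561 and 2292, and the low value belonged to GnRH 6 alone, below that array's background mean of 52.8. The difference was -0.18 ± 0.61 (fold 0.883, 95% confidence interval 0.362 to 2.15) and became 0.58 without GnRH 6. Psmd14, which cleaves ubiquitin chains from substrates, differed by -0.13 ± 0.34. Psmd7, its lid partner, differed by 0.13 ± 0.24 and Psmd11, another lid subunit, by -0.03 ± 0.24, and dimmer probe sets of both genes gave the opposite sign (-0.30 for Psmd7 and 0.24 and 0.03 for Psmd11).

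**Figure D2:**
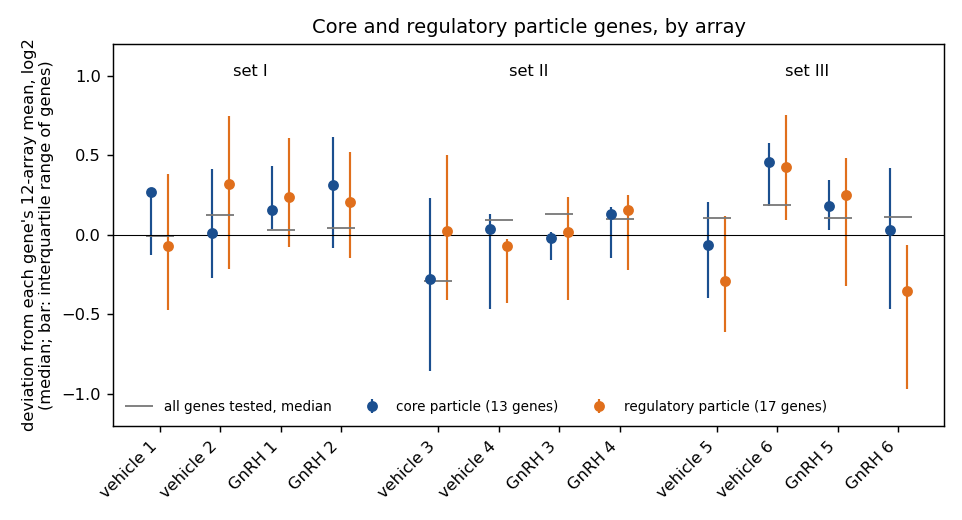
Median deviation of core particle (13) and regulatory particle (17) genes from each gene's own 12-array mean, on the log2 scale, for each array; bars span the interquartile range of genes and grey dashes give the median of all genes tested. Vehicle 6 has the highest medians of both particles (0.46 and 0.42), vehicle 3 the lowest of the core (-0.28) and GnRH 6 the lowest of the regulatory particle (-0.35).

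The particles did not separate by agent on the arrays. The core median was highest on vehicle 6 (0.46) and lowest on vehicle 3 (-0.28), and the regulatory median ran from 0.42 on vehicle 6 to -0.35 on GnRH 6. On GnRH 6 the core median was 0.03, so the particles parted most there. The core minus regulatory difference between the medians of the GnRH estimates was 0.04. Over the alternative settings it ranged from -0.03 to 0.20.

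Among the assembly chaperones 4 of 7 differences were positive, with a median of 0.24. Psmd9, which helps assemble the ATPase ring, had the smallest p of all members. Its signals were 331.7, 722.7 and 2064 with vehicle and 249.1, 382.1 and 559.1 with GnRH. The highest vehicle signal was that of vehicle 3, and the groups overlapped. The difference was -0.86 ± 0.38 (fold 0.549, interval 0.315 to 0.958, unadjusted p = 0.0365, limma adjusted p = 0.981), and the 3 preparations gave -0.59, -1.42 and -0.58. A second tested probe set of the gene gave 0.92, so the direction rested on the probe set. Psmg1, a chaperone of alpha ring assembly, ran at 221.0, 1463 and 2425.5 with vehicle and 927.8, 1564 and 2593 with GnRH. Its low vehicle value was from vehicle 3, and the difference of 0.52 ± 0.34 was not called (limma adjusted p = 0.981) and fell to 0.18 without that array.

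The activators and the inhibitor gave small differences. Psme1 and Psme2, which form a cap that opens the barrel without ATP, differed by 0.05 ± 0.26 and -0.06 ± 0.32. Psme4, a large nuclear activator, differed by 0.17 ± 0.26, with -0.04 and 0.19 from dimmer probe sets. Psmf1, an inhibitor of the core, differed by -0.17 ± 0.23. Their fold intervals were 0.705 to 1.52 for Psme1, 0.60 to 1.54 for Psme2, 0.770 to 1.63 for Psme4 and 0.639 to 1.25 for Psmf1. Of the pair that are not subunits, Psme3ip1 differed by 0.72 ± 0.49, which fell to 0.14 without vehicle 3. Its signal on vehicle 3 was 89.5, below that array's background mean of 183.5.

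The constitutive and inducible catalytic subunits were compared within arrays, because they compete for the same places in the ring. Psmb8, the inducible counterpart of Psmb5, gave 428.3, 605.8 and 1331 with vehicle and 439.7, 578.6 and 869.3 with GnRH. Psmb9 gave 418.2, 617.4 and 1387 with vehicle and 329.1, 549.0 and 753.7 with GnRH, and Psmb10 gave 777.3, 2037 and 2823 with vehicle and 1686.8, 1754 and 2252 with GnRH. The highest vehicle value of each was that of vehicle 3, and in each case the groups overlapped. The differences were -0.09 ± 0.32, -0.33 ± 0.36 and 0.07 ± 0.31, and none was called (limma adjusted p = 0.999, 0.981 and 0.999). Without vehicle 3 the difference of Psmb9 was -0.078.

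In pairs of exchangeable subunits, the log2 difference between Psmb8 and Psmb5 changed by -0.66 from vehicle to GnRH (two-sided exact permutation within sets, p = 0.231, adjusted over 3 pairs p = 0.347, 6 arrays per agent). Sets I, II and III gave -0.01, -1.41 and -0.56, and vehicle 3 lay far above the other arrays. The change was -0.21 without vehicle 3 and -1.11 without vehicle 4. For Psmb10 and Psmb7 the change was -0.60 (exact permutation p = 0.185, adjusted p = 0.347), nearly all of it in set I (-1.72, against -0.05 and -0.02), and it ran from -0.88 without vehicle 4 to -0.31 without vehicle 3. The activators Psme2 and Psme1 form a cap together and are not exchangeable. Compared in the same way, their difference changed by -0.11 (exact permutation p = 0.778, adjusted p = 0.778). The smallest p that this design allows is 0.00926. The summed signal of 10 leukocyte markers, cells rich in inducible subunits, ran from 1439.7 to 4429 on vehicle arrays and from 1358 to 2812 on GnRH arrays. The vehicle maximum was on a set II array, and none of the 10 was at 0 on any array. Tyrobp lay below background on 7 arrays, Ptprc, Cd53 and Coro1a on 5 each and C1qa on 3. Laptm5 did so on 2, Cd74 and Aif1 on 1 each, and Fcer1g and Lcp1 on 0. The part of leukocytes in the subunit values was not tested.

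**Figure D3:**
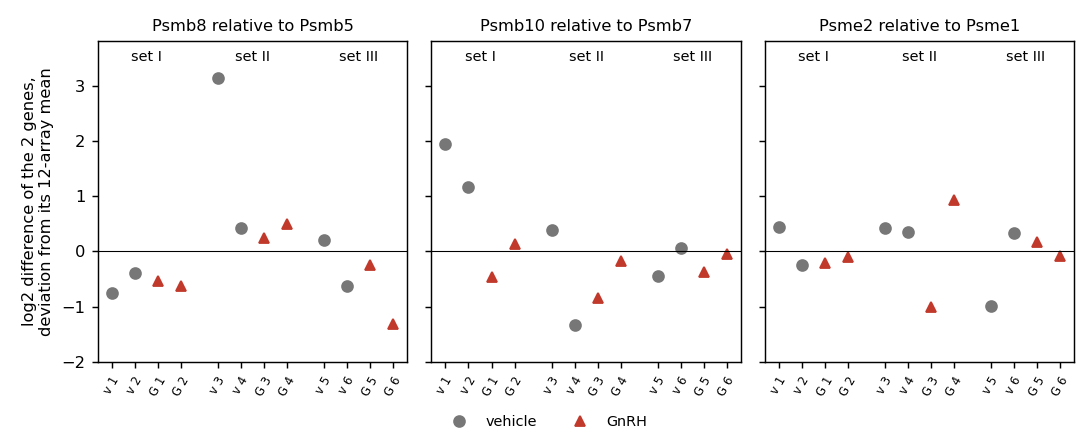
Log2 difference within each gene pair on each array, as the deviation from its 12-array mean. Circles are vehicle and triangles GnRH arrays. Vehicle 3 lies highest for Psmb8 relative to Psmb5, and the agents overlap in each of the 3 pairs.

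Promoter sequence was read because many proteasome genes share an element bound by NFE2L1, the factor that raises their transcription when the protease is inhibited. Of the 46 members 42 matched the RefSeq promoter table of assembly GRCr8, in windows from 250 bases before the start to 50 after it. The letters TGACNNNGC, searched on both strands, occurred in 7 of 42 windows (16.7%) and in 12.1% of all 33469 windows of that length. The shares were 3 of 12 in the core and 2 of 14 in the regulatory particle. The 250 bases before the start are shown for a catalytic core gene, a regulatory particle gene and the chaperone with the smallest p, with TGACNNNGC in capitals on the strand that reads towards the gene (its reverse complement also in capitals where the match is on the other strand). They lie at chr15:32047380-32047629 (strand -) for Psmb5, chr9:94157721-94157970 (strand +) for Psmd1 and chr12:39018265-39018514 (strand -) for Psmd9.
Psmb5: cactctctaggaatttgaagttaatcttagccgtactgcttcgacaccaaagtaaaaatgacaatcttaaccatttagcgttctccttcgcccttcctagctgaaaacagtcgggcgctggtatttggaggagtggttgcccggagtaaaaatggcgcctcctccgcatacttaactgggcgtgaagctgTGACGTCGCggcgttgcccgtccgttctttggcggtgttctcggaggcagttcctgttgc
Psmd1: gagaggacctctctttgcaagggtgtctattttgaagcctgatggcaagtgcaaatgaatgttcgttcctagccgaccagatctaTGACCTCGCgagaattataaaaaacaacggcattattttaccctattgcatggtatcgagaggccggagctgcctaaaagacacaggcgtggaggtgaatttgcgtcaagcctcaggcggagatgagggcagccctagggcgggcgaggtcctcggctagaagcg
Psmd9: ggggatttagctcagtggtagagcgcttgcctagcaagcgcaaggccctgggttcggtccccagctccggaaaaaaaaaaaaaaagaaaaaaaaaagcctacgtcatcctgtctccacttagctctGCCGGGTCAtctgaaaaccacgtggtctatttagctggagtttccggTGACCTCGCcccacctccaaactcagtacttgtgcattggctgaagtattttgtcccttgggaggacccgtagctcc
In Psmb5 the match ends close to the start, at bases -60 to -52, while in Psmd1 the match before the start lies at -165 to -157. Psmd9 held 2 matches, 1 on each strand. The letters CCAAT were counted separately, on both strands, and a window can hold both motifs without the letters overlapping. They occurred in 22 of 42 windows (52.4%), against 37.5% of all windows, with 9 of 12 in the core and 5 of 14 in the regulatory particle. These are descriptions of letters in a window.

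Between preparations single proteasome genes did pass, in a share close to that of all genes. A moderated F test across sets I, II and III, with the agent in the model, called 3 of 46 members (6.52%), against 6.87% of all genes. These 3 were Psma4, Psmc6 and Psmd14, one each from the alpha ring, the ATPases and the lid. Each was lower in sets II and III than in set I, and 4.62% of all genes were called in that direction. A further 11 members had an unadjusted p under 0.05 without passing, 14 in all (30.4%). The share of all genes at that threshold was not counted, so the 14 cannot be read as particular to the members.

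Psma4, an alpha ring subunit, gave signals of 3789, 3059, 4291 and 5171 in set I (vehicle 1 and 2, then GnRH 1 and 2). In set II the signals were 1058, 1230.0, 1598 and 1337, and in set III 2006, 2547, 1155 and 2869. The lowest array of set I lay above the highest of either other set. The difference was -1.62 ± 0.32 for set II minus set I and -0.98 ± 0.32 for set III minus set I (SE, limma adjusted p = 0.0228), that is 3.08-fold and 1.97-fold higher in set I.

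Psmc6, an ATPase of the regulatory particle, gave 1551, 1219.5, 1995.5 and 2457 in set I in the same order. It gave 538.5, 304.3, 537.0 and 443.0 in set II and 903.3, 156.8, 573.8 and 605.9 in set III. Set I again stood wholly above the other sets. The differences were -1.93 ± 0.45 and -1.84 ± 0.45 (limma adjusted p = 0.0281). A second tested probe set gave -2.16 and -3.48 (limma adjusted p = 0.0496), so both tested probe sets of this gene were called, and another was too dim to be tested. In set III the second stood at 47.4 on vehicle 6 and 8.6 on GnRH 5. These values lay below the background means of those arrays (79.8 and 107.65), so the size of -3.48 is uncertain.

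Psmd14, the ubiquitin-cleaving subunit, gave 4805, 2418, 2992 and 3149 in set I. It gave 335.0, 784.7, 924.8 and 439.3 in set II and 1816, 959.2, 580.7 and 1388 in set III. No array of the other sets reached the set I minimum. The differences were -2.46 ± 0.42 and -1.56 ± 0.42 (limma adjusted p = 0.00966), or 5.52-fold and 2.94-fold higher in set I. A dimmer tested probe set of this gene gave 0.48 and -0.55 (limma adjusted p = 0.557), so the call rested on the brighter one.

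**Figure D4:**
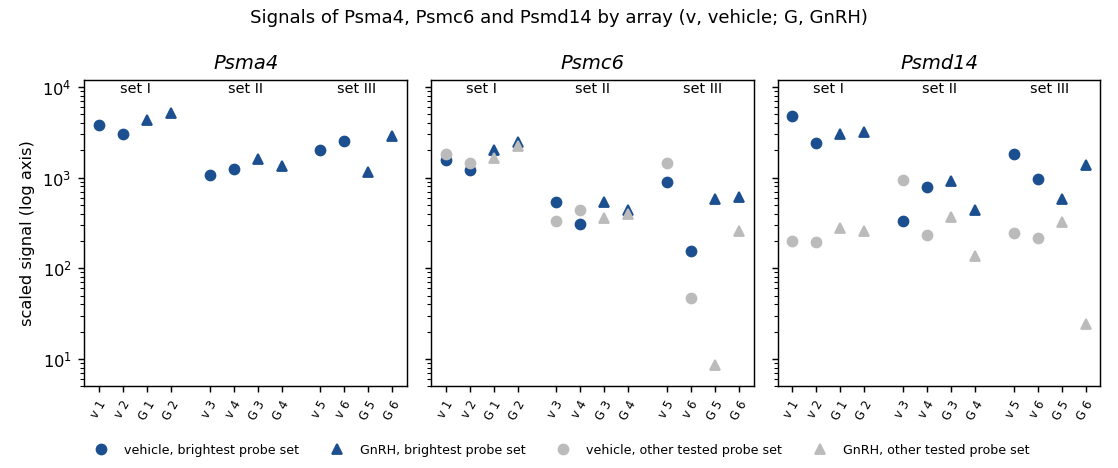
Scaled signal (log axis) of Psma4, Psmc6 and Psmd14 on each array, by enrichment set; circles are vehicle and triangles GnRH arrays, dark symbols the brightest probe set and pale symbols another tested probe set. In each panel the dark symbols of set I lie above those of sets II and III, with a set I minimum of 3059 for Psma4, 1219.5 for Psmc6 and 2418 for Psmd14.

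The preparations also differed in spike-in level, the 4 arrays of set I being low and those of set II high. In set III vehicle 5 was low and the others high. There Psmc6 stood at 903.3 on vehicle 5 and at 156.8 to 605.9 on the others, and Psmd14 at 1816 against 580.7 to 1388, whereas Psma4 stood at 2006 within a range of 1155 to 2869. With the spike-in level as a covariate 0 of the 46 members were called between sets, and 0.122% of all genes, and the 3 differences kept their sign. Spike-in level and set nearly coincide, so that model can hardly tell them apart. In that model set II and set III minus set I were -1.46 and -0.88 for Psma4, -1.30 and -1.47 for Psmc6 and -1.68 and -1.10 for Psmd14 (limma adjusted p = 0.341, 0.408 and 0.352). Without vehicle 1 or without GnRH 1 the count of members was 0, against 0.749% and 0.805% of all genes. Without GnRH 2 it was 1 (Psmd14), against 1.07% of all genes. It was 7 without vehicle 3, against 10.4%, and 8 without vehicle 5, against 14.1%. Markers of cell types differed between sets in both directions. For set II and set III minus set I, the differences of gonadotrope genes were 2.38 and 1.46 for Cga, 1.83 and 1.62 for Lhb and -1.77 and -1.62 for Gnrhr. They were 0.71 and -0.05 for Fshb, 0.08 and 1.49 for Nr5a1 and 0.09 and 0.35 for Foxl2. Gh1, the growth hormone gene of somatotropes, differed by 3.46 and 1.75, and Pomc, the corticotrope hormone gene, by -2.86 and -2.77. Pomc and Gnrhr each lay below the background controls on 5 arrays, none of them in set I, so the size of their differences is uncertain. The summed signal of the 6 gonadotrope markers was 64560.6 to 99800.4, 250475.3 to 473413.7 and 32142.1 to 494334.0 in sets I, II and III, so set III spanned both others. Lhb and Cga made up most of that sum on every array. The summed signal of 10 leukocyte markers was 1358 to 1744, 2499 to 4429 and 2072 to 2812. Background controls averaged 14.8 to 22.4 in set I, 59.0 to 183.5 in set II and 16.3 to 107.65 in set III. Several leukocyte markers lay near that background, and its part in their sum was not tested. The part of the cell mixture in the proteasome differences was not tested.

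By their brightest probe sets, other members went the opposite way without passing the threshold. Psmd8, a lid subunit, gave 261.1, 355.6, 263.4 and 240.3 in set I. It gave 793.7, 546.3, 956.2 and 775.1 in set II and 522.5, 1345.5, 1178 and 532.3 in set III. Set I stood wholly below the other sets. The differences were 1.39 ± 0.43 and 1.51 ± 0.43 (limma adjusted p = 0.058), the largest positive values among the members' brightest probe sets. A dim tested probe set of Psmd11 was called in this direction, with 3.23 and 1.11 (limma adjusted p = 0.0466). The brighter tested probe sets of Psmd11 gave -0.87 and -0.33, and -1.03 and -0.10, and were not called (limma adjusted p = 0.133 and 0.243).

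Psmb3, a beta ring subunit without catalytic activity, gave 1359, 1328, 1375 and 1444 in set I. In set II it gave 2933, 2747, 1885.5 and 2850.0, and on the set III arrays 2126, 3533, 2683 and 2442. It too lay lowest in set I, with differences of 0.89 and 0.94 (SE 0.28, limma adjusted p = 0.0666). Psmc2, an ATPase, went in the direction of Psmc6, at 8049, 13046, 10708.5 and 11415 in set I. In set II it stood at 3392.5, 3854, 6911 and 5825, and on the set III arrays at 5552, 7349, 4090.2 and 2999. Its differences were -1.15 and -1.17 (SE 0.35, limma adjusted p = 0.0616). All 3 of these genes had groups that did not overlap between set I and the rest, and none was called. Psmd10 and Psmd3 did not overlap either and were not called. How many of all genes separate set I in this way was not counted.

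By class, the alpha ring had the largest share in 1 direction among classes of over 3 genes: 5 of 7 (71.4%) were lower in both of the other sets than in set I, with medians of -0.30 and -0.56. The beta ring divided, with 2 of 6 lower in both and 3 of 6 higher in both. Of the regulatory particle 8 of 17 were lower in both and 7 of 17 higher in both. For all members 17 of 46 (37%) were lower in both, against 39.8% of all genes. Both directions thus occurred within the beta ring and within the regulatory particle.

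**Figure D5:**
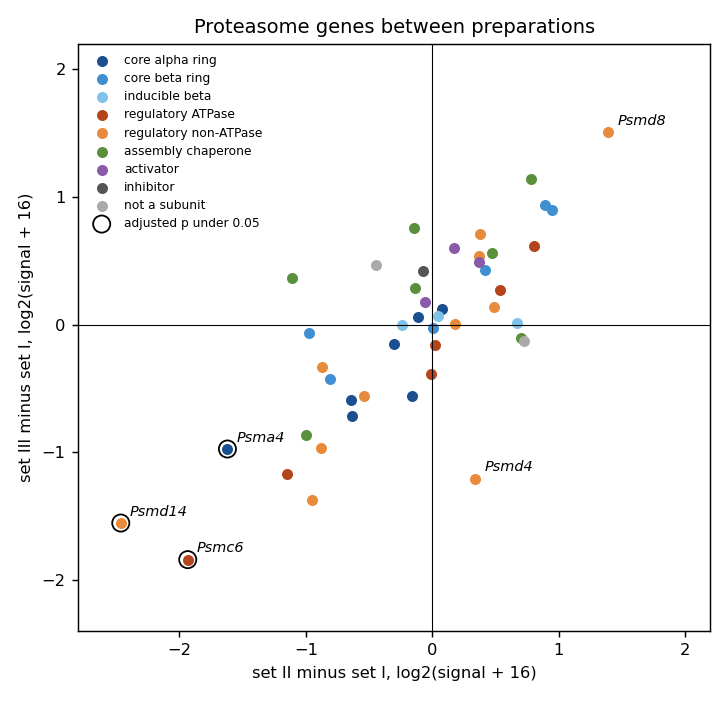
Difference of set II from set I (horizontal) and of set III from set I (vertical) on the log2(signal + 16) scale for each of the 46 genes, coloured by role; rings mark genes with an adjusted p under 0.05. Psma4, Psmc6 and Psmd14 lie at the lower left and Psmd8, at 1.39 and 1.51, at the upper right.

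The response to GnRH was also compared between the preparations. At an adjusted p under 0.05 the interaction called 0 of 46 members and 0% of all genes, and at an unadjusted p under 0.05 it called 1 member (2.17%), against 5.12% of all genes. That member was Psmc2 (unadjusted p = 0.0424, limma adjusted p = 0.924), with GnRH differences of 0.11, 0.81 and -0.86 in sets I, II and III. The members' median difference was 0.03, 0.26 and -0.09 in the 3 sets and that of all genes -0.0012, 0.22 and -0.08. Without vehicle 4, 1 member (Psme3ip1) was called, as were 5.58% of all genes.

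Across arrays the members varied less than the average gene. The median SD of log2 signal over the 12 arrays was 0.55 for members and 0.85 for all genes, and 39 of 46 members lay below the latter. They were also brighter, with a median mean log2 signal of 10.4 against 9.17. Among genes with a mean of at least 10 the medians were 0.50 for 35 members and 0.60 for 3153 genes. Psma5, an alpha ring subunit, had the smallest SD (0.28, signals from 1773 to 3407), and Psmd4 the largest (1.38, from 49.0 to 2292). The members' signals were weakly correlated with each other: the mean Pearson r between genes over the 12 arrays was 0.04 within the core, 0.09 within the regulatory particle, 0.08 between them and 0.02 over all genes. After set and agent were removed, the means were 0.08, 0.13, 0.11 and 0.03. The arrays share scaling and spike-in level across all of these pairs.

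Other genes of ubiquitin-dependent degradation were taken from a list of 46, of which 39 had a probe set with 1 symbol and 38 were tested. Of the 38, 0 were called higher and 0 lower after GnRH, 28 differences were positive and 10 negative (54.6% of all genes were positive), and the median was 0.17, against 0.04 over all genes. Those with the smallest p were Ubqln1, a shuttle that carries ubiquitinated proteins to the proteasome (0.74 ± 0.30), Skp1, an adaptor of ubiquitin ligases (1.11 ± 0.47), Ube3a, a ubiquitin ligase (1.05 ± 0.47), and Ubqln2 (0.74 ± 0.41), each with a limma adjusted p of 0.981. Skp1 stood at 152.3 on vehicle 3 and at 1578 to 2241 on the other vehicle arrays, and at 2270.1 to 3326 with GnRH. Ube3a stood at 58.7 on vehicle 3. Both of these vehicle 3 values lay below that array's background mean of 183.5. Nfe2l1, the factor named with the promoters, differed by -0.01 ± 0.33, and Pomp, which matures the core particle, by 0.32 ± 0.25.

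Between preparations 7 of the 38 list genes (18.4%) were called, and the background over all genes was 6.87%. These 7, named here after their values were seen, were Usp14, Rad23b, Ubqln2, Ube3a, Ngly1, Zfand5 and Cul3, and each was lower in sets II and III than in set I. Of all genes, 4.62% were called in that direction, which is 493 of the 734 genes called. Usp14, a deubiquitinase bound to the regulatory particle, differed by -1.47 and -1.09 (limma adjusted p = 0.0403). Rad23b, another shuttle, differed by -1.75 and -1.46 (limma adjusted p = 0.0227). Cul3, a ligase scaffold, had the smallest p, with -1.94 and -1.88 (limma adjusted p = 0.00649). Their direction was that of Psma4, Psmc6 and Psmd14, on the same arrays and with the same spike-in split.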

How the data were processed

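RNA from 12 samples was amplified in 2 rounds with T7 polymerase, which favours 3′ ends, and hybridised to Affymetrix Rat 230 2.0 arrays, per the labels. The deposited values are intensity signals on a linear scale, computed by the authors with GCOS per the submitters' processing notes. The sources used here do not give the GCOS version or settings. Trimmed means of the deposited columns lay between 497 and 499, so they are linear, uncentred and already scaled to a common target, and the target itself is not stated. Gene symbols came from the platform annotation: 20826 probe sets carried 1 symbol, 436 several and 9780 none.

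Arrays were rescaled to a trimmed mean of 500 (2% per end), 16 was added and log2 taken, which understates the changes of dim genes. Probe sets at or above the 40th percentile of mean signal were kept (18625). Models with set and agent were fitted in limma 3.58.1 (R 4.3.3) with an intensity trend over all kept probe sets, with Benjamini-Hochberg adjustment over all of them; counts over all genes use each gene's brightest probe set. Subunit pairs were compared by exact two-sided permutation within sets (216 arrangements). Scripts were tested on simulated data. The number of arrays limits the precision. The labels call the samples biological replicates, and nothing says that wells of 1 preparation were separate cultures, so p-values measure only the spread between these samples.

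Members and lists were chosen with earlier results of these data known. Named are the called members, the 2 with the smallest GnRH p in each class (1 in small classes), subunits with particular roles, the 6 and 3 with the smallest p between sets and in the interaction, members whose probe sets disagreed in sign, and from the pathway list the 4 genes with the smallest p and others chosen for their roles, not all of which are reported here. Alternatives covered the pseudocount, filter, scaling, variance trend, probe set choice, each array left out, the set term, the spike-in level and single sets.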

Additional observations from a re-analysis of the deposited data

Results flagged for a closer look

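In each group of 6 arrays per gene, the highest or lowest array was checked against the gap to its nearest neighbour relative to the whole range. Of 92 groups, 5 held such an array, and chance alone marks about 1 group in 20. Psmd4, the ubiquitin receptor, stood at 49.0 on GnRH 6 with the other GnRH arrays from 1359.6 to 2292. Psme3ip1, which is not a subunit, stood at 89.5 on vehicle 3 with the others from 654.0 to 1552. Psmg2, a chaperone of alpha ring assembly, was also lowest on vehicle 3, at 196.2. Psmc1, an ATPase, was lowest on vehicle 5 at 467.1, with its nearest neighbour at 1017. Psmb10, an inducible catalytic subunit, was highest among the GnRH arrays on GnRH 5, at 2251.9, with its nearest neighbour at 1843.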

How the results depend on the processing

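The count of members called after GnRH stayed at 0 under the 28 alternatives, and so did that of the pathway list. The members' median GnRH difference moved to 0.26 in set II alone, and was 0.10 on the 5 arrays with low spike-in signal and -0.04 on the 7 with high, both chosen after seeing the data. The count called between sets was 1 (Psmd14) without the intensity trend, against 2.53% of all genes. Differences are the same there, and Psma4 and Psmc6 had limma adjusted p = 0.0679 and 0.0593. The count was 0 with the spike-in level as a covariate (0.122% of all genes), where the signs held (Psma4, set II minus set I, -1.46 against -1.62). Psma4 was lost with quantile normalization (-1.33, adjusted p = 0.0682), Psmd14 with the mean of its probe sets (-0.99, adjusted p = 0.149), and Psmd8 was gained with a filter at the 60th percentile. The count ranged from 0 to 8 with single arrays left out, and the share of all genes from 0.749% to 14.1%. The cause was not tested. The interaction count ranged from 0 to 1 on leaving out arrays, and the Psme2 to Psme1 change from -0.43 to 0.22. Replicate numbers shared by vehicle and GnRH samples correlated at -0.22 to 0.65 within sets, so they were not taken as pairs, and with a replicate block in place of the set 0 members were called.

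No named member's GnRH difference was called in any setting, and these turned sign (cause not tested). In set I alone: Psma2 0.88, Psma7 0.016, Psmb10 -0.14, Psmb3 0.068, Psmb5 -0.023, Psmd4 0.27, Psmd8 -0.26, Psme1 -0.14 and Psme3ip1 -0.014. In set II alone: Psmd14 0.30, Psmd4 0.75 and Psme2 0.067. In set III alone: Psma4 -0.31, Psmb8 0.11, Psmc2 -0.86, Psmd11 0.41, Psmd7 -0.062, Psmd8 -0.082, Psme1 -0.21, Psme2 0.16, Psme4 -0.24 and Psmf1 0.038. With the spike-in covariate: Psmb10 -0.084, Psmd14 0.068 and Psmd8 -0.082. With quantile normalization: Psmc2 -0.096 and Psme1 -0.042. With the mean of a gene's probe sets: Psmc6 -0.020, Psmd11 0.079, Psmd7 -0.084 and Psmd9 0.026. With single arrays left out the ranges that cross 0 were -0.22 to 0.13 for Psma2, -0.42 to 0.068 for Psma7, -0.18 to 0.28 for Psmb10, -0.19 to 0.066 for Psmb8, -0.11 to 0.18 for Psmc2, -0.13 to 0.082 for Psmd11, -0.33 to 0.075 for Psmd14, -0.59 to 0.58 for Psmd4, -0.14 to 0.19 for Psmd8, -0.14 to 0.15 for Psme1, -0.31 to 0.15 for Psme2 and -0.00016 to 0.31 for Psme4. Of the 552 member signals 3 lay below the background controls, so dim signal limits few of these values.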
